A study of Homo sapiens with 16 samples.

Results

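The genes described here are factors that build ribosomes: proteins of the nucleolus and of maturing pre-ribosomes that transcribe, modify, fold and cut ribosomal RNA or assemble it with ribosomal proteins. They were chosen by name, as a list of 60 genes, and 52 of them were measured among 19777 genes, each through 1 probe set, the one with the highest mean over 16 arrays. NOP56, DKC1, DDX47, BOP1 and PPAN lie only on probe sets that list other genes too, and GNL3, DDX18 and EBNA1BP2 were not used here. The rule that names them uses no measured value, but the list was chosen with earlier results of these data known.

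The arrays hold RNA from MIA PaCa-2, a human pancreatic carcinoma cell line, exposed for 12 hours to PP242 at 2.5 µM, which blocks the kinase mTOR, or to DMSO as vehicle. RNA came from the polysome pool, the fractions of a 10 to 50% sucrose gradient in which an mRNA carries more than 3 ribosomes, or from the cytosol as a whole. The 4 groups were polysome RNA with PP242, polysome RNA with vehicle, cytosolic RNA with PP242 and cytosolic RNA with vehicle, with 4 replicates each. All 4 come from 1 line with no engineered allele named, and the labels do not say that replicates are separate cultures, so the p-values measure the spread between these samples, which may be technical. Whole cultures were measured, so fewer cells of a kind and less RNA per cell cannot be told apart.

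Ribosome production starts in the nucleolus, where RNA polymerase I transcribes the long precursor of the ribosomal RNAs. Small nucleolar RNPs modify this precursor, the small subunit processome folds it and cuts out the small subunit's RNA, and separate sets of factors ripen the small (40S) and large (60S) subunits and take them to the cytoplasm. The mTOR kinase is known to drive this pathway, through RNA polymerase I and through the translation of mRNAs that begin with a run of pyrimidines, the TOP motif. The transcription factor MYC is known to activate many of these genes through the E-box CACGTG.

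Values are log2 signals as deposited, so a difference of 1 is a doubling. A gene's level is comparable between arrays but not with the level of another gene. Correlations between arrays of a group were 0.992 to 0.997 in polysome PP242, 0.991 to 0.997 in polysome vehicle, 0.979 to 0.989 in cytosolic PP242 and 0.993 to 0.998 in cytosolic vehicle arrays. The cytosolic PP242 arrays spread most, with a median gene SD of 0.245, against 0.122 in cytosolic vehicle arrays, and arrays 2 and 4 of that group stood apart with the lowest array weights, 0.36 for array 2 and 0.252 for array 4. The line's own markers were bright, with KRT18 between 12.89 and 14.40 and VIM between 13.98 and 14.40 on all 16 arrays. Of 12 markers of leukocytes, endothelium, fibroblasts and normal pancreas, COL1A2 alone was bright, at 10.99 to 11.75 in polysome PP242, 11.85 to 12.61 in polysome vehicle, 10.56 to 11.37 in cytosolic PP242 and 11.37 to 11.87 in cytosolic vehicle arrays. The others stayed between 2.66, the lowest value of the leukocyte marker PTPRC, and 7.33, the highest of COL1A1, and the part of COL1A2 in the results below was not tested.

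Promoter sequence is described first, since the letters do not depend on the arrays, although it was examined after the arrays were. RefSeq windows on GRCh38.p14, running 250 bases before to 50 after a start, were found for 46 of the 52 members. DDX52, NOLC1, NOP58, RRP12, RRP1B and RRS1 had none in the table. The motif CACGTG, which is its own reverse complement, lay in at least 1 window of 19 of the 46 members (41.3%), against 10.9% of 15382 genes of the array and 8.77% of all 27305 genes with a window. Counted per window, 36.5% of the members' windows held it, against 7.26% of all 35116 windows. In 18 of the 19 members the motif began within 50 bases of the start, which is 39.1% of the members and 4.43% of the array's genes, a distance chosen after the positions were seen. A TOP-like start, a C at the RefSeq start followed by at least 4 pyrimidines on the gene's strand, was found for DDX21, FBL, NOB1, NPM1, TAF1D and UTP14A, which is 13.0% of members against 6.07% of the array's genes. A match is a description of these letters and shows neither a bound site nor the start used in these cells.

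The stretches of 100 bases before to 30 after the start are printed for the 6 members that fell on polysomes. They are also printed for NPM1 and NOB1, which have a TOP-like start and were called in the cytosol. Both of these cytosolic calls were lost without cytosolic PP242 arrays 2 and 4. All are RefSeq sequence on GRCh38.p14, written 5′ to 3′ on the gene's strand. They lie at chr2:68157788-68157917 on the plus strand for PNO1, chr19:39846350-39846479 on the minus strand for FBL, chr17:2336428-2336557 on the minus strand for TSR1 and chr5:73565643-73565772 on the plus strand for UTP15. The others lie at chr1:19251705-19251834 on the plus strand for MRTO4, chr17:51260446-51260575 on the plus strand for UTP18, chr5:171387749-171387878 on the plus strand for NPM1 and chr16:69754897-69755026 on the minus strand for NOB1. Capitals mark CACGTG in PNO1, MRTO4 and UTP18 and the pyrimidine run from the first transcribed base in NPM1 and NOB1. In FBL they mark both, which overlap by 1 base, and TSR1 and UTP15 have neither in this stretch.
PNO1: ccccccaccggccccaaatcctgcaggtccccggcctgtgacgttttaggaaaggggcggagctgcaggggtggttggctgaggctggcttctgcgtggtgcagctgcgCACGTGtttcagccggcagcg
FBL: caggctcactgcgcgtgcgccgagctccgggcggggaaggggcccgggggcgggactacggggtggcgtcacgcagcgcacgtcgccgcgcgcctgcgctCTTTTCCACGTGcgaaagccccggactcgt
TSR1: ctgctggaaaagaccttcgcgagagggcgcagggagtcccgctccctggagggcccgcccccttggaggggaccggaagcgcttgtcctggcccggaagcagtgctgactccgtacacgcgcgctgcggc
UTP15: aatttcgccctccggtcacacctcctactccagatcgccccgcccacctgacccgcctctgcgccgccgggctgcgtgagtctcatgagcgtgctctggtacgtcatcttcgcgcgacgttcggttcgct
MRTO4: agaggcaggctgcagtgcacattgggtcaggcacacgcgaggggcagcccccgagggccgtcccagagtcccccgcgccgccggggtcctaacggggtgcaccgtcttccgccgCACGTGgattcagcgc
UTP18: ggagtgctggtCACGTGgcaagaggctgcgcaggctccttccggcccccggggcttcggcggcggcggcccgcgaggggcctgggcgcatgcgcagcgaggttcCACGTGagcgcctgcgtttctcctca
NPM1: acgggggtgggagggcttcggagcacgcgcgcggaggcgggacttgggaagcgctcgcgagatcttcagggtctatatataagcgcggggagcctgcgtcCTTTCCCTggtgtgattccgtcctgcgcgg
NOB1: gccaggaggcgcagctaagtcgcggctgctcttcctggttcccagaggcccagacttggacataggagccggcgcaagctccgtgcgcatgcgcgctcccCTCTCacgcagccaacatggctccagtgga

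The first question was which of these mRNAs changed on polysomes. In polysome RNA, PP242 lowered 6 of 52 members: the small subunit factors UTP15, UTP18, PNO1 and TSR1, the snoRNP methyltransferase FBL and the large subunit factor MRTO4. No member rose, although with the mean of probe sets POLR1B, the second largest subunit of RNA polymerase I, was called higher. The 6 that fell are 11.5% of the members, against a background of 6.55% of all 19777 genes called lower and 6.81% called higher (limma, Benjamini-Hochberg adjusted p under 0.05 over all genes, two-sided). The median difference of the 52 was -0.166, against -0.005 for all genes, and 39 of 52 (75%) lay below 0, against 50.9% of all genes. For 9 members (17.3%) all PP242 arrays lay below all vehicle arrays, against 9.85% of all genes. An unadjusted p under 0.05 in either direction was found for 11 members, against 24.1% of all genes, a share close to that background. All 52 members had a mean log2 value of at least 6, while the median of all genes over all arrays was 5.92. The background of all genes, here and below, thus includes many genes dimmer than the members. Shares called among equally bright genes are not given here.

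PNO1, the partner that positions the nuclease NOB1 on the small subunit's RNA, had the largest difference of the members on polysomes. It stood at 8.53, 8.54, 8.31 and 8.66 in polysome PP242 arrays, against 8.99, 9.04, 9.45 and 9.53 in polysome vehicle arrays. The groups did not overlap, and PNO1 fell by 0.74 ± 0.14 (SE, n = 4 each) on the log2 scale with an adjusted p of 0.0014, a level 0.598 times that of vehicle. PNO1 was called in every alternative tried in polysome RNA. Its 2 other probe sets differed by -0.38 and -0.24.

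FBL, the methyltransferase of the box C/D snoRNPs, stood at 11.64, 11.60, 11.73 and 11.89 in polysome PP242 arrays, against 12.22, 12.29, 12.38 and 12.41 in polysome vehicle arrays. All 4 PP242 arrays lay below the lowest vehicle array, and the difference was -0.61 ± 0.14 with an adjusted p of 0.00503. TSR1, a GTPase-like factor that sits on the late 40S particle, stood at 8.87, 8.67, 8.73 and 8.88 with PP242, against 9.12, 9.29, 9.43 and 9.41 with vehicle on polysomes. These arrays did not overlap either, the difference was -0.52 ± 0.12 and the adjusted p 0.00632. TSR1's probe sets disagree, as 2 of the 3 others differed by 0.08 each and the third by -0.47, and with the mean of its probe sets the adjusted p was 0.352.

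MRTO4, which holds the place of the stalk protein on the 60S precursor, stood at 9.88, 9.99, 10.17 and 10.17 in polysome PP242 arrays, against 10.35, 10.44, 10.83 and 10.76 in polysome vehicle arrays. The arrays did not overlap, the difference was -0.54 ± 0.16 with an adjusted p of 0.0326, and its other probe set differed by -0.60. UTP15, a subunit of the processome's early-binding complex, stood at 7.27, 7.39, 7.38 and 7.19 with PP242, against 7.62, 7.80, 7.81 and 8.01 with vehicle. Again no arrays overlapped, with a difference of -0.50 ± 0.14 and an adjusted p of 0.0178. UTP15's other, dimmer probe set differed by -0.24. UTP18, another WD-repeat subunit of the processome, stood at 10.82, 10.75, 10.98 and 11.03 with PP242, against 10.98, 11.18, 11.37 and 11.40 with vehicle. Here the groups overlapped, and the difference of -0.34 ± 0.11 passed narrowly at an adjusted p of 0.0491.

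All 6 were lower in PP242 in each of the 4 replicate numbers. Samples with the same number deviated together in the groups compared, so the numbers were taken to pair the samples, and with the number as a block 11 members fell and 0 rose, against 9.7% of all genes lower and 10.6% higher. The block added NOLC1, a chaperone of snoRNPs (adjusted p 0.00277), NCL, the nucleolar protein nucleolin (0.0139), NOP10, a core protein of the H/ACA snoRNPs (0.0194), DDX21, an RNA helicase (0.0454) and LTV1, a factor released late from the 40S precursor (0.048). NOLC1 stood at 10.59, 10.68, 10.92 and 11.06 in polysome PP242 arrays, against 10.86, 11.13, 11.59 and 11.47 in polysome vehicle arrays. Its groups overlapped while each PP242 array lay below the vehicle array of its number. NOLC1's other probe sets differed by -0.59 and -0.66, and it was also called lower with the mean of probe sets and with array weights. The other probe set of DDX21 differed by -0.44. The calls also depended on the number of replicates: without replicate 2 the count was 2, without replicate 1, 3 or 4 it was 3, and PNO1 was called each time. The share of all genes called in these settings is not given here. These counts thus do not show whether members lost calls more than other genes.

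**Figure D1:**
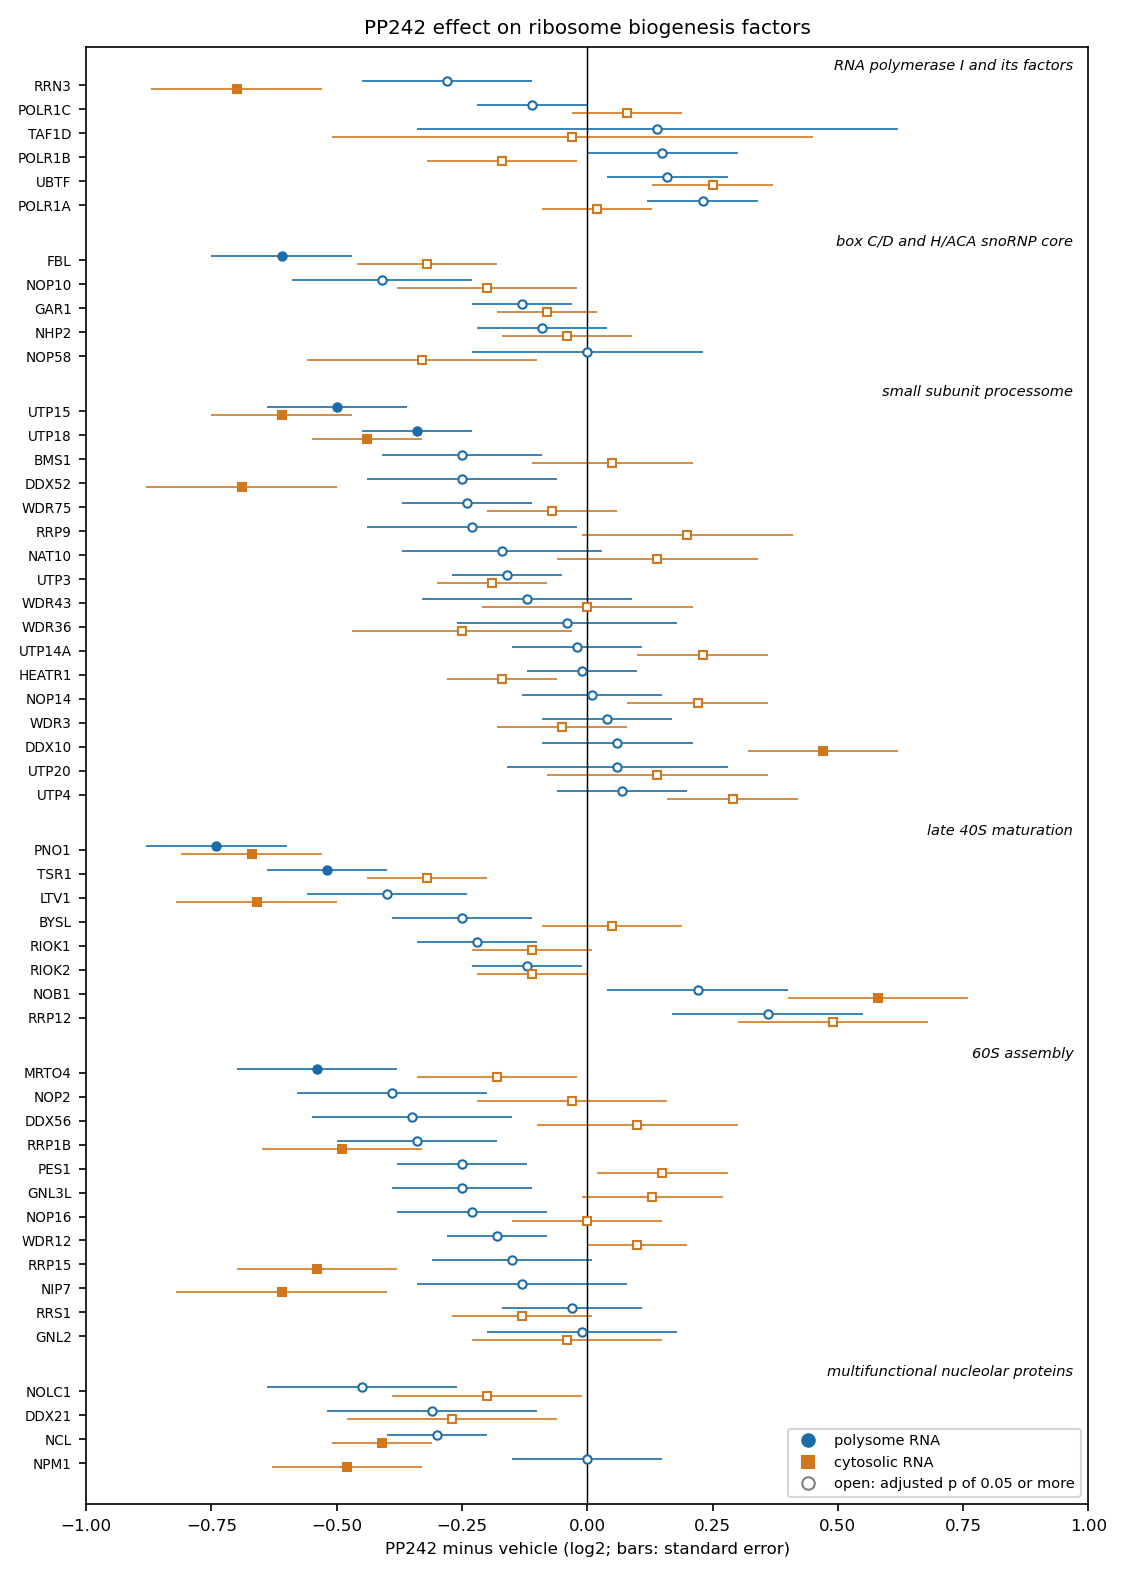
Difference between PP242 and vehicle (log2, x axis) for the 52 measured members, grouped by role, in polysome RNA (blue circles) and cytosolic RNA (orange squares), with standard errors as bars and filled symbols for an adjusted p under 0.05. In polysome RNA 39 of 52 lie below 0 and the 6 filled circles all do, while the 13 filled squares of cytosolic RNA lie on both sides.

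By role, the polysome differences of the large subunit factors had a median of -0.24 and all 12 lay below 0, though MRTO4 alone was called. Of these 12, RRS1 at -0.03 and GNL2 at -0.01 lay close to 0. NOP2, a methyltransferase of the large subunit's RNA, was at -0.39, the helicase DDX56 at -0.35 and PES1, of the PeBoW complex, at -0.25. The 8 late 40S factors had a median of -0.23 with 2 called, and RRP12, a pre-ribosome export factor, went the other way without a call at 0.36. In the 17 processome subunits the median was -0.12 with 2 called, and in the 5 snoRNP proteins -0.13 with 1 called. The 4 multifunctional nucleolar proteins had a median of -0.31 with none called, and NPM1, a histone and pre-ribosome chaperone, was at 0.00. The 6 genes of RNA polymerase I and its factors had a median of 0.14 with none called, with POLR1A, its largest subunit, at 0.23, POLR1B at 0.15 and 0.57, 0.40 and 0.37 on its 3 other probe sets, and RRN3, which brings the polymerase to its promoter, at -0.28. Over all genes 6.55% were called lower, and in groups this small 1 or 2 calls are too few to set against that share. Whether these role groups differ from each other was not tested.

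The second question was which members changed in cytosolic RNA, the mRNA pool that the polysome mRNAs are part of. In the cytosol PP242 lowered 11 members and raised 2. The 11 are 21.2% of the 52, against a background of 7.91% of all genes called lower, and the 2 are 3.85%, against 8.54% called higher. For 8 of the members (15.4%) all PP242 arrays lay below all vehicle arrays, against 8.34% of all genes. The median of the members was -0.075, against 0.04 for all genes. As on polysomes, this background includes many genes dimmer than the members, and shares among equally bright genes are not given here. The lower members were RRN3, UTP15, UTP18, DDX52, PNO1, LTV1, RRP1B, RRP15, NIP7, NCL and NPM1, and the higher ones were NOB1 and DDX10. With the replicate number as a block 16 were called, 12 lower and 4 higher, against 11.0% of all genes lower and 13.9% higher, with FBL added on the lower side (adjusted p 0.0456) and RRP12 (0.0188) and UTP4 (0.0466) on the higher side.

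Arrays 2 and 4 of the cytosolic PP242 group bear on these calls. Without these arrays 5 members were called, all lower: UTP15, UTP18, PNO1, NCL and also FBL. Among the 13 called with all arrays, these arrays held the lowest values of the PP242 group for RRN3, DDX52, LTV1, RRP1B, RRP15, NIP7 and NPM1, and the highest for UTP18, DDX10 and NOB1. Over all 52 members both arrays lay above arrays 1 and 3 for 24 (46.2%, against 33.1% of all genes) and below them for 10 (19.2%, against 18.5%). What sets these arrays apart was not tested. The standard errors and p-values used 1 spread per gene, shared by all 4 groups, although the cytosolic PP242 arrays spread most. With only the 8 cytosolic arrays in the fit 6 members were called, all lower: DDX52, LTV1, PNO1, RRP1B, UTP15 and UTP18. Shares of all genes called with fewer arrays are not given here.

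PNO1 stood at 8.61, 8.49, 8.22 and 8.47 in cytosolic PP242 arrays, against 8.99, 8.90, 9.30 and 9.27 in cytosolic vehicle arrays. The arrays did not overlap, and the difference of -0.67 ± 0.14 (adjusted p 0.00322) was -0.70 without arrays 2 and 4 (adjusted p 0.0171). Its 2 other probe sets differed by -0.15 and -0.57. UTP15 stood at 6.32, 6.14, 6.54 and 6.62 in cytosolic PP242 arrays, against 6.88, 6.75, 7.19 and 7.25 in cytosolic vehicle arrays. These did not overlap, with a difference of -0.61 ± 0.14 (adjusted p 0.00422) that was -0.59 without arrays 2 and 4 (adjusted p 0.0187). UTP15's other, dimmer probe set differed by -0.40. UTP18 stood at 9.99, 10.05, 9.84 and 10.09 with PP242, against 10.43, 10.40, 10.51 and 10.39 with vehicle in the cytosol. Here too no arrays overlapped, the difference was -0.44 ± 0.11 (adjusted p 0.00952), and without arrays 2 and 4 it was -0.52 (adjusted p 0.0119). NCL stood at 11.47, 11.27, 11.56 and 11.56 in cytosolic PP242 arrays, against 11.75, 11.72, 12.01 and 12.01 in cytosolic vehicle arrays, with no overlap. Its difference was -0.41 ± 0.10 (adjusted p 0.00991), and -0.36 without arrays 2 and 4 (adjusted p 0.0459).

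The remaining 7 lower members lost their call without arrays 2 and 4. RRN3 stood at 8.64, 7.82, 8.54 and 7.64 in cytosolic PP242 arrays, against 8.91, 8.84, 8.83 and 8.87 in cytosolic vehicle arrays. All 4 lay below every vehicle array, with arrays 2 and 4 lowest, and the difference of -0.70 ± 0.17 (adjusted p 0.0072) was -0.27 without them (adjusted p 0.0902). DDX52, a DEAD-box helicase of the processome, stood at 7.80, 7.41, 8.03 and 7.34 with PP242, against 8.26, 8.12, 8.57 and 8.39 with vehicle. It did not overlap, at -0.69 ± 0.19 (adjusted p 0.0166), and was at -0.42 without the pair (adjusted p 0.28). LTV1 stood at 7.73, 7.33, 7.94 and 7.57 with PP242, against 8.21, 7.95, 8.60 and 8.44 with vehicle. The groups were apart by 0.01 at their nearest arrays, the difference was -0.66 ± 0.16 (adjusted p 0.00757), and without the pair it was -0.46 (adjusted p 0.124).

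The lower large subunit factors in the cytosol were RRP1B, RRP15 and NIP7, all of which act on nucleolar 60S precursors. RRP1B stood at 10.15, 9.85, 10.09 and 9.95 with PP242, against 10.44, 10.40, 10.70 and 10.47 with vehicle in the cytosol. Its groups did not overlap, the difference of -0.49 (adjusted p 0.0378) was -0.38 without arrays 2 and 4 (adjusted p 0.273), and its other probe set differed by 0.03. RRP15 stood at 7.48, 6.99, 7.90 and 7.31 with PP242, against 7.77, 7.68, 8.19 and 8.20 with vehicle. Its groups overlapped, the difference of -0.54 ± 0.16 (adjusted p 0.0306) was -0.27 without the pair (adjusted p 0.398), and its other probe set differed by -0.83. NIP7 stood at 9.15, 8.23, 8.75 and 7.81 with PP242, against 9.08, 8.97, 9.18 and 9.15 with vehicle. Array 1 lay above its vehicle partner, the difference of -0.61 (adjusted p 0.0486) was -0.15 without the pair (adjusted p 0.696), and its other probe set differed by -0.79.

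NPM1 showed the split most plainly. It stood at 13.45, 12.66, 13.54 and 12.74 in cytosolic PP242 arrays, against 13.57, 13.49, 13.62 and 13.61 in cytosolic vehicle arrays. Arrays 2 and 4 were low and the other two near vehicle, so that the difference of -0.48 ± 0.15 (adjusted p 0.0369) was -0.08 without the pair (adjusted p 0.674). Its 2 other probe sets differed by -0.05 and 0.02.

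The members that rose in the cytosol were NOB1, the nuclease that makes the final cut of the small subunit's RNA, and DDX10, a helicase of the processome. NOB1 stood at 10.18, 10.55, 9.72 and 10.58 in cytosolic PP242 arrays, against 9.57, 9.62, 9.72 and 9.80 in cytosolic vehicle arrays. Array 3 fell within the vehicle values, and the difference of 0.58 ± 0.18 (adjusted p 0.0293) was 0.27 without arrays 2 and 4 (adjusted p 0.449). DDX10 stood at 10.29, 10.75, 9.87 and 10.34 with PP242, against 9.84, 9.90, 9.86 and 9.78 with vehicle in the cytosol. Array 3 again lay within the vehicle values, and the difference of 0.47 (adjusted p 0.0401) was 0.24 without the pair (adjusted p 0.412). PNO1, which works with NOB1 on the same particle, fell in the cytosol where NOB1 rose.

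**Figure D2:**
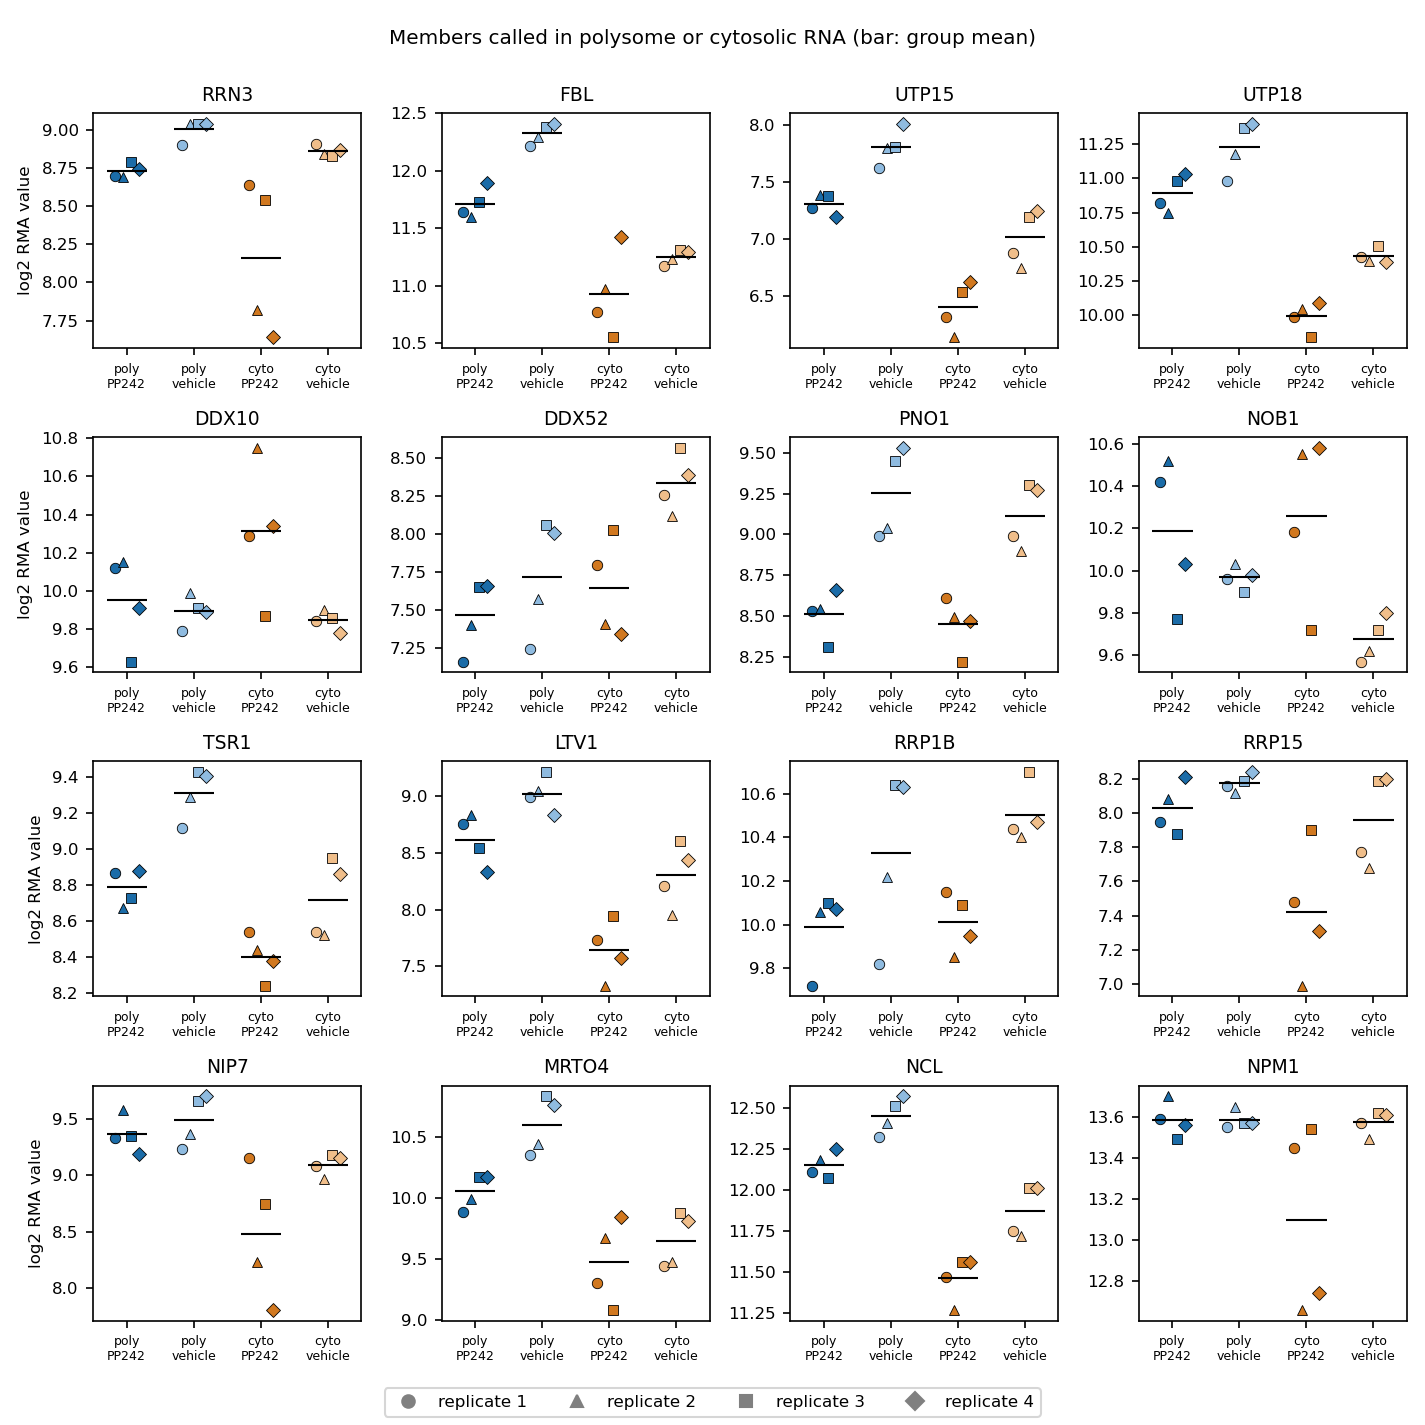
Log2 value (y axis, scale differs by panel) of the 16 members called in polysome or cytosolic RNA, on each array of the 4 groups, with a marker shape for each replicate number and a bar for the group mean. PNO1, UTP15, NCL and RRN3 sit lower in PP242 than in vehicle in both pools without overlap. In cytosolic PP242, RRN3, NIP7 and NPM1 are lowest in arrays 2 and 4.

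The members called lower in both pools were PNO1, UTP15 and UTP18, which is 50.0% of the polysome calls and 27.3% of the lower cytosolic calls. Over all genes 847 were lower in both, which is 65.4% of the lower polysome calls and 54.2% of the lower cytosolic calls, so the members' shares were not above those of all genes. NCL had no overlap in either pool and was at -0.30 on polysomes, where its adjusted p was 0.0615 without and 0.0139 with the block. RRN3 had no overlap in either pool either, and was at -0.28 on polysomes (limma, adjusted p 0.369 without and 0.267 with the block). FBL, TSR1 and MRTO4 were called on polysomes, and in the cytosol were at -0.32, -0.32 and -0.18. The others called in the cytosol had polysome differences between -0.40 for LTV1 and 0.22 for NOB1. A call in 1 pool and not in the other does not show that the pools differ, which the next comparison tests.

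The change in polysome association is the polysome difference minus the cytosolic difference of the same gene. None of the 52 members was called, against 0.0% of all 19777 genes, by limma without and with the replicate block. At an unadjusted p under 0.05 there were 2 members and 1750 genes (8.85%). These 2 were PES1, at -0.40 ± 0.19 (unadjusted p 0.0468), and NPM1, at 0.48 ± 0.21 (unadjusted p 0.0382), both with an adjusted p of 0.558. Both values rest on cytosolic PP242 arrays 2 and 4, as without these arrays PES1 was at -0.18 (unadjusted p 0.282) and NPM1 at 0.08 (unadjusted p 0.449). The 2 other probe sets of NPM1 were at -0.29 and -0.06, on the other side of 0. The member median was -0.085, against -0.04 for all genes, and 0.003 without arrays 2 and 4, and single members ran from -0.45 for DDX56 to 0.48 for NIP7. With a median standard error of 0.21, differences of this size were not detectable by this test with 4 arrays a group.

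PES1 shows how this quantity arises. It stood at 8.53, 8.55, 8.69 and 8.57 in polysome PP242 arrays, against 8.65, 8.81, 9.02 and 8.85 in polysome vehicle arrays. In the cytosol it stood at 8.11, 8.40, 8.03 and 8.64 with PP242, against 8.01, 8.04, 8.23 and 8.29 with vehicle. Its polysome arrays were lower in PP242 in all 4 numbers, and its cytosolic arrays were mixed. For PNO1, UTP15 and UTP18 the association difference was -0.07, 0.11 and 0.10, so the pools moved by similar amounts, each within its standard error of 0. The arrays of the 2 pools look normalized apart from each other, and a loss from polysomes shared by all mRNAs would not show in any of these values.

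**Figure D3:**
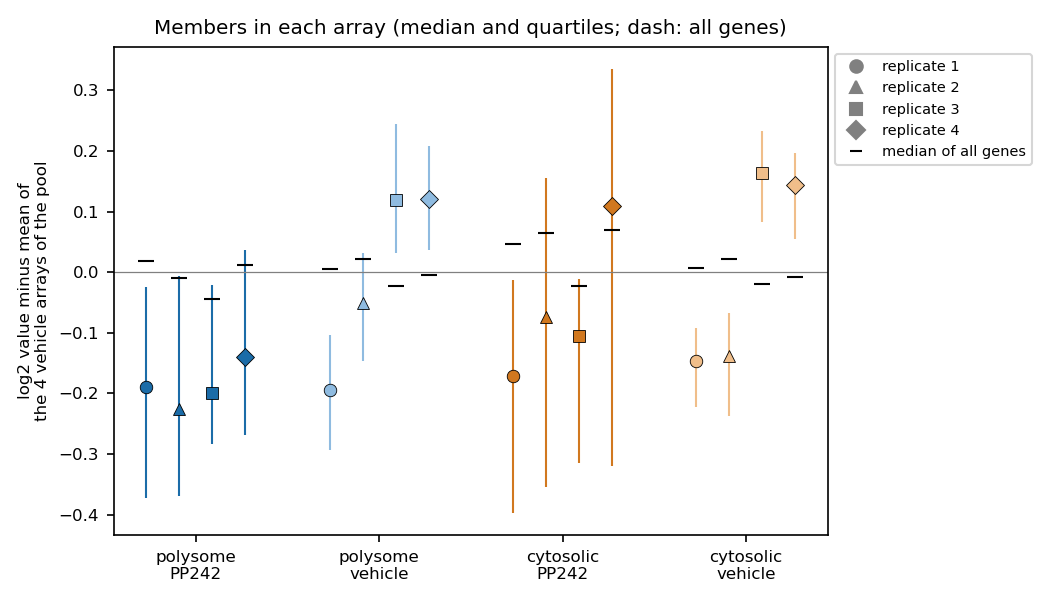
Median of the 52 members on each array (symbols, with quartiles as bars; y axis in log2), each gene taken relative to the mean of the 4 vehicle arrays of its pool, with the median of all genes as a dash. The 4 polysome PP242 arrays lie between -0.226 and -0.14, and vehicle arrays 1 and 2 lie below vehicle arrays 3 and 4 in both pools.

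The vehicle arrays themselves varied. Relative to the mean of the 4 vehicle arrays of the pool, the members' median was -0.19, -0.226, -0.199 and -0.14 in polysome PP242 arrays, against -0.194, -0.051, 0.119 and 0.121 in polysome vehicle arrays. In the cytosol it was -0.171, -0.074, -0.105 and 0.11 in PP242 arrays, against -0.146, -0.138, 0.164 and 0.144 in vehicle arrays. Vehicle arrays 3 and 4 were thus higher than 1 and 2 in both pools, while the median of all genes stayed between -0.045 and 0.07 on every array. Paired by number, the members' median polysome difference was -0.015 for number 1, -0.155 for number 2, -0.30 for number 3 and -0.29 for number 4, with 28, 37, 44 and 45 of 52 members below 0. In the cytosol it was 0.005, 0.08, -0.29 and -0.01, so that number 3 stood apart. With numbers 1 and 2 only, 3 members were called on polysomes, RRP12 higher and FBL and PNO1 lower, and with numbers 3 and 4 only PNO1 was. Shares of all genes are not given for these 2 settings.

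The third comparison sets polysome against cytosolic RNA in cells of the same treatment. Members sat higher on polysomes than most genes: in PP242 cells 32 of 52 (61.5%) were called higher in polysome RNA and 2 lower, against a background of 16.1% of all genes higher and 38.1% lower. In vehicle cells 31 (59.6%) were higher and 3 lower, against 16.8% and 35.9%. The median polysome minus cytosolic difference of the members was 0.495 with PP242 and 0.554 with vehicle, against -0.18 and -0.16 for all genes. With the replicate block 36 were higher and 4 lower with PP242, against 18.8% and 41.5% of all genes, and 33 higher and 3 lower with vehicle, against 19.5% and 39.7%. In both treatments 47 of 52 members lay above the median of all genes. All 52 members had a mean log2 value of at least 6, while the median of all genes over all arrays was 5.92. The background thus includes many genes dimmer than the members, and a background of equally bright genes is not given here. Each size depends on how the pools were scaled, as array medians were 4.57 to 4.63 in polysome and 5.0 to 5.05 in cytosolic arrays. With all 16 arrays quantile normalized together the median of all genes was 0.016 with PP242 and 0.029 with vehicle, the members' medians were 0.325 and 0.418, and 27 and 26 members were higher, against 23.7% and 24.0% of all genes. Each treatment had 5 members lower, against 22.3% of all genes with PP242 and 20.3% with vehicle. With the mean of all probe sets of a gene, 19 were higher and 6 lower with PP242, and 21 higher and 4 lower with vehicle, against 10.9% and 11.9% of all genes higher and 45.5% and 41.7% lower.

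The members with the highest difference in vehicle cells were RRP12 and BYSL, which act on the late 40S particle, and the processome factor UTP14A, while in PP242 cells they were RRP12, UTP3 and RRS1, a 60S assembly factor. RRP12 stood at 9.13, 9.24, 9.72 and 9.59 in polysome vehicle arrays, against 7.64, 7.72, 8.44 and 8.19 in cytosolic vehicle arrays. The pools did not overlap, and the difference was 1.42 ± 0.19 in vehicle cells (adjusted p 8.23e-06) and 1.28 in PP242 cells, although its 4 dimmer probe sets ran from -1.07 to 0.54 in vehicle cells. BYSL stood at 8.93, 9.0, 9.45 and 9.43 in polysome vehicle arrays, against 7.63, 7.78, 8.0 and 7.99 in cytosolic vehicle arrays. It has 1 probe set, did not overlap, and was 1.35 ± 0.14 higher on polysomes (adjusted p 6.21e-07), with 1.06 in PP242 cells. UTP14A was at 1.05 with PP242 and 1.31 with vehicle, GNL3L, a nucleolar GTPase, at 0.89 and 1.27, UTP3 at 1.23 and 1.20, and RRS1 at 1.14 and 1.04. GNL3L's 3 other probe sets disagree with that value, at -0.54, -0.20 and 0.14 with PP242 and -0.43, 0.13 and 0.06 with vehicle.

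The lowest members were WDR36, a processome subunit, and NOP10. WDR36 stood at 6.51, 6.79, 7.29 and 7.60 in polysome vehicle arrays, against 8.19, 8.29, 8.53 and 8.49 in cytosolic vehicle arrays. These did not overlap, with a difference of -1.33 ± 0.22 in vehicle cells (adjusted p 6.98e-05) and -1.12 in PP242 cells, but its other probe set was at 0.29 in vehicle cells. NOP10 stood at 10.66, 10.45, 10.27 and 10.54 in polysome vehicle arrays, against 11.36, 11.36, 11.18 and 11.20 in cytosolic vehicle arrays. It too did not overlap, at -0.80 ± 0.18 with vehicle (adjusted p 0.00128) and -1.01 with PP242. The snoRNP core thus held members on both sides, as FBL was at 0.79 with PP242 and 1.08 with vehicle, and GAR1 at 0.91 and 0.96.

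**Figure D4:**
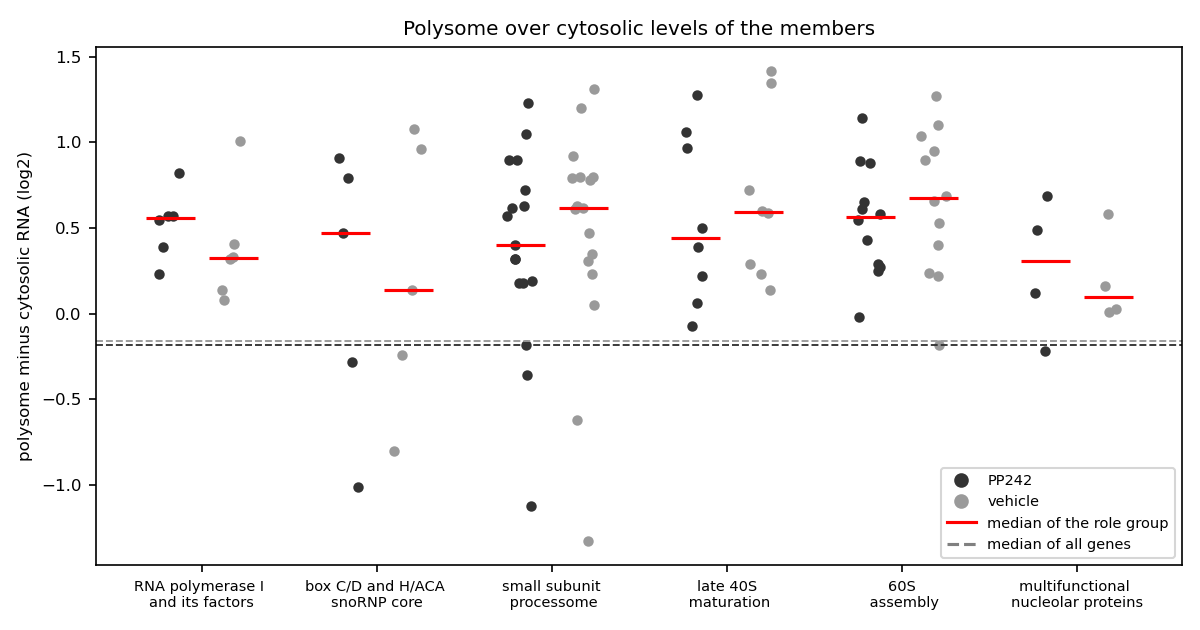
Polysome minus cytosolic log2 value (y axis) of each member in PP242 (black) and vehicle (grey) cells, by role group, with group medians in red and the medians of all genes, -0.18 with PP242 and -0.16 with vehicle, as dashed lines. Most members lie above the dashed lines in both treatments, and WDR36 and NOP10 lie lowest.

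The promoter features can be set beside the array values as a description. The 19 members with CACGTG had a median polysome difference of -0.25, against -0.13 in the 27 without it, and median cytosolic differences of -0.03 and -0.07. Their median change in polysome association was -0.21, against -0.01 without the motif. In vehicle cells the median polysome minus cytosolic difference was 0.72 with the motif and 0.40 without it. Of the 6 members that fell on polysomes, PNO1, FBL, MRTO4 and UTP18 hold the motif. The 6 members with a TOP-like start had a median polysome difference of -0.01, against -0.17 in the 40 without, and ran from -0.61 for FBL to 0.22 for NOB1. The other medians went the other way. The cytosolic difference was -0.15 with such a start and -0.04 without, and the change in polysome association was -0.15 and -0.10. In vehicle cells the polysome minus cytosolic difference was 0.35 with such a start and 0.59 without. Which RefSeq start these cells use was not measured.

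Further genes of the pathway, listed by name with earlier results of these data known, were counted in the same way. Of 87 measured, 21 (24.1%) fell and 0 rose in polysome RNA by limma, against 6.55% of all genes lower and 6.81% higher, and the median was -0.18. At an unadjusted p under 0.05 there were 32, against 24.1% of all genes. In cytosolic RNA 13 (14.9%) fell and 5 (5.75%) rose, against 7.91% and 8.54% of all genes, with a median of -0.02. The 2 with the smallest p on polysomes were subunits of the RNA exosome, which trims ribosomal RNA precursors. EXOSC8 stood at 7.88, 8.21, 8.02 and 7.96 in polysome PP242 arrays, against 8.92, 9.41, 9.29 and 9.19 in polysome vehicle arrays. It did not overlap, at -1.18 ± 0.15 (adjusted p 1.89e-05), and was at -1.12 ± 0.15 in the cytosol (adjusted p 3.30e-05). EXOSC3 was at -0.89 ± 0.13 on polysomes (adjusted p 1.09e-04). In the cytosol TAF1A, a subunit of the RNA polymerase I promoter factor SL1, fell by 1.10 (adjusted p 3.78e-04), while POLR1D, a subunit of RNA polymerases I and III, rose by 0.67 (adjusted p 0.0228) and EFL1, a GTPase that frees the 60S subunit of its last assembly factor, by 0.64 (adjusted p 0.0022). Values without cytosolic PP242 arrays 2 and 4 are not given here for these further genes. Within cytosolic PP242, these arrays were the lowest for EXOSC8 and the highest for EFL1, at 8.39 and 8.47, against 8.10 and 7.88. TAF1A was dim, between 4.89 and 5.97 in cytosolic PP242 arrays, with a median of all genes over all arrays of 5.92.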

How the data were processed

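Per the submitters' processing notes, arrays were summarized by RMA (no version named), and the authors deposited log2 values for 54613 probe sets. Background settings and joint or separate normalization were not given in the sources used here. Matching quantiles spread by 0.09 among the 8 cytosolic, 0.07 among the 8 polysome and 0.4 among all 16 arrays. Of the probe sets, 41091 list 1 gene, 1801 several and 11721 are not in the gene table used. Each gene was represented by its brightest probe set, as 31 members have several. A mean per group was fitted to all 16 arrays with limma 3.58.1 (R 4.3.3), with an intensity trend, two-sided tests, Benjamini-Hochberg adjustment over 19777 genes and calls under 0.05. The fit was also run on simulated data with independent noise of equal spread in all groups. That simulation lacks the pairing by number and the wider spread of the cytosolic PP242 arrays, so it does not cover their effect on the calls. Members, role groups and gene lists were chosen with earlier results of these data known, and genes were named by role and call. Same-numbered samples of the compared groups deviated together in 16 of 16 pairs (median r 0.41, range 0.164 to 0.51), which is where the pairing comes from. Pairs of number 1 with 2 and of 3 with 4 also did so in 14 of 16 (median r 0.264, up to 0.447), and 0 of 32 pairs across these did, so the numbers also fall into 1 and 2 against 3 and 4. The number of arrays limits the precision. Alternatives are given in the closing section.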

Additional observations from a re-analysis of the deposited data

Results flagged for a closer look

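Among 64 sets of 4 arrays, those of the 16 members called in polysome or cytosolic RNA, 2 held an array set far from the other 3 by Dixon's criterion, which by chance marks about 1 in 20. RRP1B's lowest polysome PP242 array was at 9.72, with the others between 10.06 and 10.10. RRN3's lowest polysome vehicle array was at 8.90, with the others all at 9.04. Both were arrays of replicate 1.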

How the results depend on the processing

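All 6 polysome calls and all 13 cytosolic calls kept their direction in every alternative, and 55 of the polysome and 117 of the cytosolic member values kept their call while 29 and 78 lost it. On polysomes the count of 6 members became 11 with the replicate block, 3 with numbers 1 and 2 only, 1 with numbers 3 and 4 only, and 2 to 3 leaving out a replicate. With the mean of probe sets 7 were called, POLR1B higher. UTP18 and MRTO4 lost their call with all 16 arrays quantile normalized or scaled by cyclic loess. In the cytosol the count of 13 became 8 with the mean of probe sets, 8 with numbers 1 and 2 only, 1 with numbers 3 and 4 only, 6 with only the 8 cytosolic arrays, 5 without PP242 arrays 2 and 4 (an alternative chosen with earlier results of these data known), and 3 to 11 leaving out a replicate. The causes were not tested. PNO1 and UTP15 were the members called in the cytosol without each replicate in turn. The median polysome minus cytosolic difference moved to 0.325 (quantile), 0.316 (loess) and 0.178 (mean of probe sets) with PP242, and to 0.418, 0.386 and 0.252 with vehicle. Fewer arrays leave fewer degrees of freedom, and the shares of all genes called with fewer arrays are not given here. Beside the calls given, the replicate block left 0 members called for polysome association.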
